A study of Mus musculus with 12 samples.

Results

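The genes of cholesterol and fatty acid synthesis were followed in the ventral hippocampus of mice. The set holds 29 genes, taken by symbol from the 54532 genes of the deposited count table, and all 29 were expressed highly enough to be tested. By role they are 17 enzymes of sterol synthesis (6 of the mevalonate steps, 3 from farnesyl diphosphate to lanosterol and 8 after lanosterol), 4 genes of SREBP regulation, 7 enzymes of fatty acid synthesis, elongation and desaturation, and 1 sterol carrier. RNA was sequenced in 12 libraries, 3 in each of 4 groups, all labelled wild type. The groups were mice exposed to CSDS with no virus named, mice with hepatic knockdown of ACOT12 exposed to SSDS (SSDS-shACOT12), SSDS-exposed mice that received AAV8-eGFP (SSDS-GFP), and mice with no treatment (Control). Only abbreviations are given; in stress research CSDS usually means chronic, and SSDS subthreshold, social defeat stress. The column names of both virus groups carry TBG, usually a promoter active in hepatocytes, and the knockdown is labelled hepatic, so the tissue sequenced is not the one named as its target. Age and the number of animals per library are not given. Whether each replicate came from its own animal is not stated, so the p-values measure only how these libraries spread, which may be technical.

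Cholesterol and fatty acids are both built from acetyl-CoA, the substrate that ACOT12 splits into acetate and CoA in the liver. The mevalonate steps turn acetyl-CoA into farnesyl diphosphate, squalene synthase commits it to sterols, and a series of oxidations, demethylations and reductions leads over lanosterol to cholesterol. SREBP transcription factors raise the genes of both pathways when membrane sterol is low: SCAP escorts them out of the endoplasmic reticulum, and INSIG1 holds them back when sterol is high. The brain is largely cut off from lipoproteins of the blood and makes its own cholesterol, mostly in astrocytes and, for myelin, in oligodendrocytes.

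Library totals ran from 14656714 to 17694570 counts. SSDS-shACOT12 3, SSDS-shACOT12 1 and SSDS-GFP 3 stood apart from the rest, with scores of 63.1, 37.4 and 35.7 on a first principal component of all genes whose next highest score was 5.82. In these 3 libraries genes of low GC content were under-represented: the eighth of genes with the lowest transcript GC content had a median log2 deviation from the 12-library mean of -0.58 in SSDS-shACOT12 3, -0.51 in SSDS-shACOT12 1 and -0.24 in SSDS-GFP 3. Markers of neurons (7 of 7 measured) and of the hippocampus (6 of 6) were present in all libraries. Red blood cell markers (5 of 5) summed to 332 to 386 CPM in CSDS libraries against 87.8 to 120.1 CPM in Control libraries. Choroid plexus markers (5 of 5 counted, 3 high enough to be tested) summed to 17.6 to 24.3 CPM in CSDS and 37.0 to 549 CPM in Control libraries. Of these markers 2 were at 0 in at least 1 CSDS library, and the lowest averaged 0.19 CPM. In bulk tissue, fewer cells of a type and less RNA per cell cannot be told apart.

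The 29 genes spanned a wide range of levels, given here as deposited FPKM, which is scaled per length and can be compared between genes. Scd2, the stearoyl-CoA desaturase of brain, had the highest mean over the 12 libraries, 188 FPKM, above 98.8% of the tested genes. It was followed by the fatty acid desaturases Fads1 with 61.8 FPKM and Fads2 with 44.1 FPKM, by the HMG-CoA synthase Hmgcs1 with 43.3 FPKM, and by Scd1 with 29.8 FPKM. The ranges of Fads2 (34.7 to 55.0 FPKM) and Hmgcs1 (26.2 to 62.1 FPKM) overlapped, so their order is not separated by the spread between libraries. The lowest were the lanosterol synthase Lss with 2.33 FPKM and the farnesyl diphosphate synthase Fdps with 0.181 FPKM, a level above that of only 3.32% of tested genes. Fdps rested on 9 to 20 counts per library, and 26.7% of its exonic bases are shared with Gm43738 on the same strand, which had 0 to 2 counts. How reads of shared bases were assigned is not given in the sources used here, so the value of Fdps is uncertain.

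**Figure D1:**
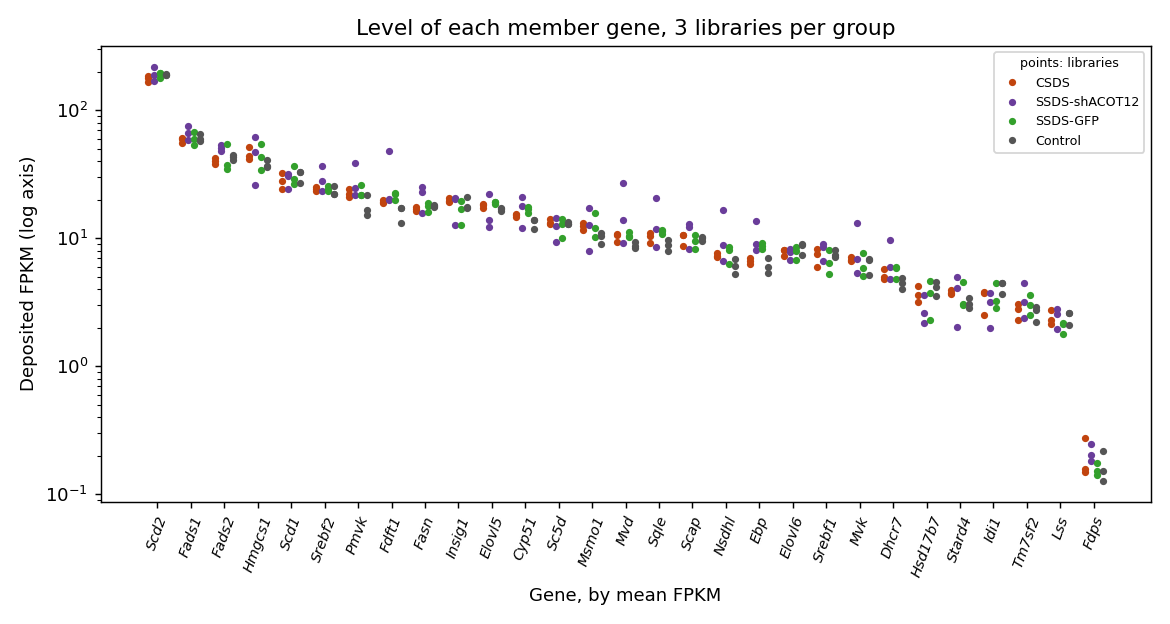
Deposited FPKM (log axis) of the 29 genes, ordered by mean level, with 1 point per library and 3 libraries per group. Scd2 lies at the top near 188 FPKM and Fdps at the bottom near 0.181 FPKM, and for most genes the points of the 4 groups overlap.

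No gene of the set passed the test in any comparison. With edgeR's quasi-likelihood test and a Benjamini-Hochberg adjusted p under 0.05 over 16915 genes, 0 of 29 were called for CSDS against Control, where 0% of all genes were called. For SSDS-shACOT12 against SSDS-GFP it was 0 of 29 with 0% of all genes, and for SSDS-GFP against Control 0 of 29 with 0.0946% of all genes, 16 in number. DESeq2 also called 0 of the 29 in each. In this fit of all 12 libraries the counts at an unadjusted p under 0.05 were 0, 1 and 1 of 29. Beside them stood 5.87%, 4.53% and 15.2% of all genes in these comparisons in the same order. The fit pools the spread over all groups, and the set's spread was widest in SSDS-shACOT12 libraries. With only the 6 libraries compared, the counts were 6, 0 and 5 of 29, beside 2535 of 16325, 183 of 16075 and 2917 of 16207 genes. Still 0 of the 29 were called, with a smallest edgeR adjusted p of 0.205 (Msmo1), 0.982 (Mvd) and 0.125 (Ebp). What stood out in the set was a library and not a group: in SSDS-shACOT12 3, 27 of the 29 genes lay above their 12-library mean, beside 52.7% of all genes.

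**Figure D2:**
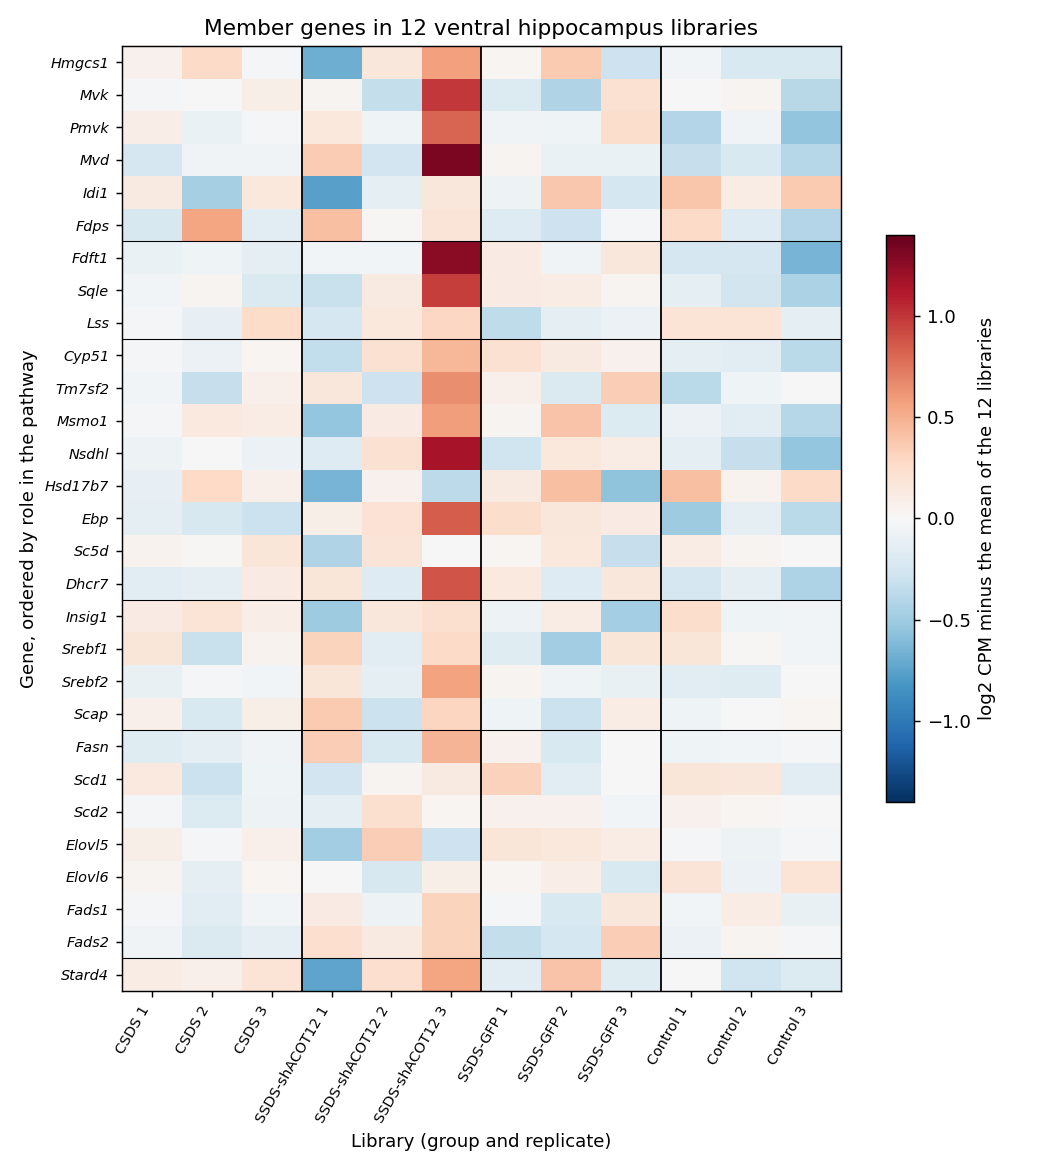
Each cell is the log2 CPM of a gene in a library minus the gene's mean over the 12 libraries, with genes ordered by role and libraries by group. The column of SSDS-shACOT12 3 is above the mean for 27 of 29 genes, with a median of 0.97 for the squalene and lanosterol enzymes and of 0.13 for the fatty acid enzymes.

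Among the mevalonate enzymes, Hmgcs1 (ENSMUSG00000093930, chromosome 13, 119690379 to 119708260, mm10), which joins acetyl-CoA and acetoacetyl-CoA, had 204, 236 and 194 CPM in CSDS, 122, 218 and 293 CPM in SSDS-shACOT12, 200.1, 253 and 161 CPM in SSDS-GFP and 191, 169 and 169 CPM in Control libraries. The 3 CSDS values lay above the 3 Control values, while the SSDS-shACOT12 values spanned the range of all 12 libraries, with the lowest and the highest value of all. For Hmgcs1 12.1% of exonic bases are shared with Gm48342 on the opposite strand, and the kit named in the labels does not mark strand. Pmvk (ENSMUSG00000027952, chromosome 3, 89454541 to 89469013), phosphomevalonate kinase, had 41.6, 36.3 and 38.2 CPM in CSDS, 43.1, 37.2 and 68.4 CPM in SSDS-shACOT12, 37.6, 37.3 and 46.0 CPM in SSDS-GFP and 29.1, 37.6 and 26.3 CPM in Control libraries. Its highest value was in SSDS-shACOT12 3 and its lowest in Control 3. Mvd (ENSMUSG00000006517, chromosome 8, 122433601 to 122443422), the decarboxylase that makes isopentenyl diphosphate, had 17.5, 20.0 and 19.9 CPM in CSDS, 26.4, 17.1 and 51.7 CPM in SSDS-shACOT12, 21.2, 19.3 and 19.3 CPM in SSDS-GFP and 16.4, 17.7 and 15.6 CPM in Control libraries. The value in SSDS-shACOT12 3 was above all others, and without it the largest was 26.4 CPM, in SSDS-shACOT12 1. Idi1 (ENSMUSG00000058258, chromosome 13, 8885501 to 8892451), the isomerase that follows, had 13.3, 8.77 and 13.5 CPM in CSDS, 7.11, 11.1 and 13.5 CPM in SSDS-shACOT12, 11.6, 15.8 and 10.2 CPM in SSDS-GFP and 15.8, 12.98 and 15.6 CPM in Control libraries. Its groups overlapped, and it was the only mevalonate enzyme with a negative log2 fold change for CSDS over Control. The kinase Mvk ranged from 13.5 to 36.2 CPM and Fdps from 0.535 to 1.16 CPM. Mvk was highest in SSDS-shACOT12 3, and Fdps in CSDS 2. Idi1 has near copies in the annotation, Gm13502 and Gm35570, that could take part of its reads.

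At the entry to sterols, squalene synthase Fdft1 (ENSMUSG00000021273, chromosome 14, 63145150 to 63179578) had 82.5, 84.0 and 80.1 CPM in CSDS, 85.9, 85.5 and 211 CPM in SSDS-shACOT12, 95.01, 84.9 and 98.3 CPM in SSDS-GFP and 74.5, 74.4 and 56.0 CPM in Control libraries. All values but that of SSDS-shACOT12 3 lay between 56.0 and 98.3 CPM, and the 3 Control values were the 3 lowest. Of its exonic bases 18.3% are shared with Ctsb on the opposite strand, and Gm6781 is a near copy, so its level carries that uncertainty. Squalene epoxidase Sqle (ENSMUSG00000022351, chromosome 15, 59315077 to 59331192), a rate-limiting step, had 58.3, 61.3 and 51.7 CPM in CSDS, 48.0, 65.4 and 117 CPM in SSDS-shACOT12, 64.7, 64.1 and 61.4 CPM in SSDS-GFP and 54.4, 50.2 and 43.9 CPM in Control libraries. Again the value in SSDS-shACOT12 3 was the highest. Lss (ENSMUSG00000033105, chromosome 10, 76531588 to 76557138), which folds the epoxide into lanosterol, had 24.8, 23.2 and 30.0 CPM in CSDS, 21.4, 27.8 and 30.8 CPM in SSDS-shACOT12, 19.6, 23.1 and 23.7 CPM in SSDS-GFP and 28.7, 28.7 and 22.8 CPM in Control libraries. Its values in SSDS-shACOT12 3 and CSDS 3 were close, and its groups overlapped in every comparison.

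After lanosterol, the demethylase Cyp51 (ENSMUSG00000001467, chromosome 5, 4081145 to 4104746) had 67.1, 64.3 and 69.5 CPM in CSDS, 53.8, 79.1 and 94.6 CPM in SSDS-shACOT12, 79.3, 74.6 and 71.5 CPM in SSDS-GFP and 62.5, 61.8 and 52.6 CPM in Control libraries. Its SSDS-GFP and CSDS values all lay above its Control values. The methylsterol oxidase Msmo1 (ENSMUSG00000031604, chromosome 8, 64718139 to 64733792) had 71.9, 80.3 and 78.1 CPM in CSDS, 50.1, 78.8 and 109.6 CPM in SSDS-shACOT12, 75.1, 96.4 and 64.0 CPM in SSDS-GFP and 69.0, 65.3 and 55.2 CPM in Control libraries. The CSDS values did not overlap the Control values, and SSDS-shACOT12 1 was the lowest library of all. Nsdhl (ENSMUSG00000031349, chromosome X, 72918557 to 72958514), a decarboxylating dehydrogenase of the same demethylation, had 21.0, 21.9 and 20.7 CPM in CSDS, 19.4, 25.5 and 49.2 CPM in SSDS-shACOT12, 18.05, 24.3 and 23.6 CPM in SSDS-GFP and 20.0, 17.6 and 15.1 CPM in Control libraries. In SSDS-shACOT12 3 it was well above the next value, 25.5 CPM in SSDS-shACOT12 2. The isomerase Ebp (ENSMUSG00000031168, chromosome X, 8185329 to 8193512) had 16.4, 15.4 and 14.6 CPM in CSDS, 19.1, 20.8 and 32.4 CPM in SSDS-shACOT12, 21.4, 20.1 and 19.6 CPM in SSDS-GFP and 12.7, 16.3 and 13.9 CPM in Control libraries. All SSDS-GFP values of Ebp lay above all Control values. Dhcr7 (ENSMUSG00000058454, chromosome 7, 143823145 to 143848410), the reductase of the last step, had 28.4, 28.8 and 34.0 CPM in CSDS, 35.6, 27.9 and 58.0 CPM in SSDS-shACOT12, 34.6, 27.8 and 35.1 CPM in SSDS-GFP and 26.7, 28.6 and 23.4 CPM in Control libraries. Its groups overlapped, and SSDS-shACOT12 3 was again the highest. The other 3 enzymes of this stretch, Tm7sf2 (12.5 to 25.6 CPM), Hsd17b7 (11.3 to 23.8 CPM) and the desaturase Sc5d (46.3 to 70.7 CPM), overlapped between the groups of every comparison. Tm7sf2 shares 12.1% of its exonic bases with Vps51 on the same strand. Hsd17b7 is 1 of 2 genes of the set that lay below the mean in SSDS-shACOT12 3, and the other is the elongase Elovl5.

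The regulators had a ratio of the highest to the lowest CPM between 1.60 (Scap) and 1.73 (Srebf1) over the 12 libraries. Srebf2 (ENSMUSG00000022463, chromosome 15, 82147181 to 82205379), which codes for the factor that mainly drives sterol genes, had 170.0, 179.7 and 178 CPM in CSDS, 206, 168 and 270.2 CPM in SSDS-shACOT12, 188, 176 and 170.2 CPM in SSDS-GFP and 163, 163 and 184 CPM in Control libraries. It was highest in SSDS-shACOT12 3 and next in SSDS-shACOT12 1, and its groups overlapped. Srebf1 (ENSMUSG00000020538, chromosome 11, 60199089 to 60222581), whose products mainly drive fatty acid genes, had 46.7, 33.3 and 43.0 CPM in CSDS, 51.3, 37.5 and 49.9 CPM in SSDS-shACOT12, 36.8, 29.7 and 46.8 CPM in SSDS-GFP and 46.7, 42.0 and 40.3 CPM in Control libraries. Insig1 (ENSMUSG00000045294, chromosome 5, 28071363 to 28078662), itself an SREBP target, had 60.8, 64.0 and 59.8 CPM in CSDS, 39.7, 62.4 and 65.7 CPM in SSDS-shACOT12, 53.5, 60.4 and 40.3 CPM in SSDS-GFP and 66.5, 53.9 and 54.5 CPM in Control libraries. Neither gene had groups that were separate in any comparison. Scap ranged from 61.2 to 97.7 CPM and was highest in SSDS-shACOT12 1. It shares 13.2% of its exonic bases with 5830462I19Rik on the opposite strand.

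Of the fatty acid enzymes, fatty acid synthase Fasn (ENSMUSG00000025153, chromosome 11, 120805846 to 120824547) had 180.1, 185 and 196 CPM in CSDS, 257, 174 and 282 CPM in SSDS-shACOT12, 211, 174 and 201 CPM in SSDS-GFP and 195, 197 and 201 CPM in Control libraries. SSDS-shACOT12 1 and 3 lay above the other 10 libraries. Elovl6 (ENSMUSG00000041220, chromosome 3, 129532355 to 129638495), which lengthens saturated and monounsaturated chains, had 52.5, 47.1 and 52.3 CPM in CSDS, 51.5, 43.9 and 54.4 CPM in SSDS-shACOT12, 52.3, 54.6 and 44.0 CPM in SSDS-GFP and 58.1, 48.3 and 58.5 CPM in Control libraries, and its groups overlapped. Gm11295 is a near copy of Elovl6. Scd1 (ENSMUSG00000037071, chromosome 19, 44394451 to 44407709), which puts the first double bond into stearate and palmitate, had 159, 117 and 138 CPM in CSDS, 120.0, 148 and 158 CPM in SSDS-shACOT12, 181, 129 and 144 CPM in SSDS-GFP and 162, 161 and 130.2 CPM in Control libraries. Its groups overlapped too. Scd2 (ENSMUSG00000025203, chromosome 19, 44293676 to 44306864) had 1024, 904 and 980.0 CPM in CSDS, 943, 1202 and 1053 CPM in SSDS-shACOT12, 1078, 1073 and 1005 CPM in SSDS-GFP and 1077, 1049.8 and 1029 CPM in Control libraries. All 3 CSDS values of Scd2 were below all 3 Control values, by a small margin. Fads1 (ENSMUSG00000010663, chromosome 19, 10182888 to 10196870), a desaturase of polyunsaturated fatty acids, had 210.5, 193 and 209.8 CPM in CSDS, 233, 205 and 267 CPM in SSDS-shACOT12, 210.4, 186 and 239 CPM in SSDS-GFP and 209.5, 231 and 200.03 CPM in Control libraries. Fads2 (ENSMUSG00000024665, chromosome 19, 10064164 to 10101503), which acts on the first step of the same route, had 64.4, 58.0 and 60.7 CPM in CSDS, 78.6, 72.7 and 83.0 CPM in SSDS-shACOT12, 53.0, 56.1 and 84.5 CPM in SSDS-GFP and 63.0, 68.5 and 65.5 CPM in Control libraries. The CSDS and Control values of Fads2 nearly separated, with the highest CSDS value, 64.4 CPM, above the lowest Control value, 63.0 CPM. Elovl5 (ENSMUSG00000032349, chromosome 9, 77917364 to 77984519), which lengthens polyunsaturated chains, had 65.3, 60.7 and 64.5 CPM in CSDS, 44.0, 78.1 and 50.4 CPM in SSDS-shACOT12, 69.2, 68.1 and 66.4 CPM in SSDS-GFP and 60.3, 58.7 and 61.0 CPM in Control libraries. SSDS-shACOT12 1 and 3 held its lowest values and SSDS-shACOT12 2 its highest. Over all 12 libraries the ratio of the highest to the lowest CPM was 1.33 for both Scd2 and Elovl6, the smallest of the set, against 3.76 for Fdft1, 3.31 for Mvd and 3.26 for Nsdhl, the largest. Stard4 (ENSMUSG00000024378), a cytosolic sterol carrier, had 20.9, 20.4 and 22.2 CPM in CSDS, 11.6, 23.0 and 28.5 CPM in SSDS-shACOT12, 17.5, 25.6 and 17.3 CPM in SSDS-GFP and 19.3, 16.0 and 17.1 CPM in Control libraries. Its CSDS values lay above its Control values, and its lowest and highest values were both in SSDS-shACOT12 libraries.

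The comparison of CSDS with Control asks what repeated stress by itself left in the hippocampus. Of the 29 genes, 18 had a positive and 11 a negative log2 fold change, with a median of 0.08 beside 0.00 over all tested genes. The sterol enzymes had positive values for 14 of 17, with a median log2 fold change of 0.20, and the fatty acid enzymes had negative values for 6 of 7, with a median of -0.11. Pmvk averaged 38.7 ± 2.69 CPM in CSDS and 31.0 ± 5.85 CPM in Control libraries (SD, n = 3 each). Its log2 fold change of 0.32 ± 0.21 (SE) had the smallest p of the set (edgeR adjusted p = 0.901). It was followed by Idi1 with a log2 fold change of -0.33 ± 0.25, Msmo1 with 0.28 ± 0.23 and Cyp51 with 0.18 ± 0.17, for which the edgeR adjusted p was 0.916, 0.922 and 0.922. Fasn averaged 187 ± 7.99 CPM in CSDS and 198 ± 2.93 CPM in Control libraries (SD, n = 3 each), a log2 fold change of -0.08 ± 0.16. Over the set the edgeR adjusted p ran from 0.901 to 0.999. CSDS values were above Control values without overlap for 6 genes, Hmgcs1, Fdft1, Cyp51, Msmo1, Nsdhl and Stard4, beside 10.2% of all genes, and below them for Scd2 alone, beside 10.1% of all genes. Leaving out Control 3, the library with the lowest sterol enzymes of its group, brought the median of the sterol enzymes to 0.13, still with 14 of 17 positive. Red blood cell and choroid plexus markers, with the sums given above, also differed between these groups, and their part in these values was not tested.

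Set against SSDS-GFP, the SSDS-shACOT12 group addresses what the liver knockdown adds under the same stress. Here 23 of 29 genes had a positive log2 fold change, with a median of 0.23 beside 0.01 over all tested genes. The median was 0.36 for the mevalonate enzymes, 0.28 for the squalene and lanosterol enzymes, 0.08 for the enzymes after lanosterol, 0.25 for SREBP regulation and 0.02 for the fatty acid enzymes. Mvd averaged 31.7 ± 17.9 CPM in SSDS-shACOT12 and 19.9 ± 1.06 CPM in SSDS-GFP libraries (SD, n = 3 each). Its log2 fold change of 0.67 ± 0.28 was the only one with an unadjusted p under 0.05 and did not hold after adjustment (edgeR adjusted p = 0.803). Nsdhl averaged 31.4 ± 15.8 CPM in SSDS-shACOT12 and 22.0 ± 3.45 CPM in SSDS-GFP libraries (SD, n = 3 each), a log2 fold change of 0.51 ± 0.27. Srebf2 followed with 0.27 ± 0.15 and Fasn with 0.28 ± 0.16. For each of Nsdhl, Srebf2 and Fasn the edgeR adjusted p was 0.803 as well. SSDS-shACOT12 values lay above SSDS-GFP values without overlap for 1 gene, the low Fdps, beside 2.23% of all genes, and below them for 0 genes, beside 2.58% of all genes. Same-numbered libraries of these 2 groups deviated together in the data, and a fit with the replicate number as a block called 0 of the 29. The lowest eighth of GC content was highest in replicate 2 of both groups, at 0.19 in SSDS-shACOT12 and 0.34 in SSDS-GFP. It was lowest in replicate 3 of both, at -0.58 and -0.24. The part of GC content in the pairing was not tested.

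The medians of the set and of the sterol enzymes rested on SSDS-shACOT12 3, while some genes moved little without it. The log2 fold change of Fdps was 0.46 ± 0.44 without it against 0.43 ± 0.38 with all libraries, and that of Fads2 0.24 ± 0.18 against 0.27 ± 0.16. Without SSDS-shACOT12 3, the median log2 fold change of the set was -0.02, with 12 of 29 positive. That of the sterol enzymes was -0.05, with 5 of 17 positive. Mvd then had a log2 fold change of 0.13 ± 0.17, Nsdhl 0.04 ± 0.18, Fdft1 -0.11 ± 0.14 (against 0.46 ± 0.28 with all libraries) and Sqle -0.15 ± 0.15 (against 0.28 ± 0.24). The median of SREBP regulation was 0.12 without this library, with 3 of 4 positive, against 0.25 with all libraries. SSDS-shACOT12 1, where genes of low GC content were under-represented, stayed in this fit. Srebf2 had 0.08 ± 0.13 without it against 0.27 ± 0.15 with all libraries, and Srebf1 0.24 ± 0.20 against 0.29 ± 0.18. Without SSDS-shACOT12 2, in contrast, 985 of all genes and 3 of the set were called. These were Mvd at 0.96 ± 0.21 (edgeR adjusted p = 0.0265), Fasn at 0.45 ± 0.11 (edgeR adjusted p = 0.0400) and Elovl5 at -0.53 ± 0.11 (edgeR adjusted p = 0.0207). That fit sets the 2 SSDS-shACOT12 libraries that stand apart against SSDS-GFP. With SSDS-GFP 3, SSDS-shACOT12 1 and SSDS-shACOT12 3 all left out, the median was 0.00 with 14 of 29 positive and 0 called, where the remaining SSDS-shACOT12 library is assumed to vary like the other groups.

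**Figure D3:**
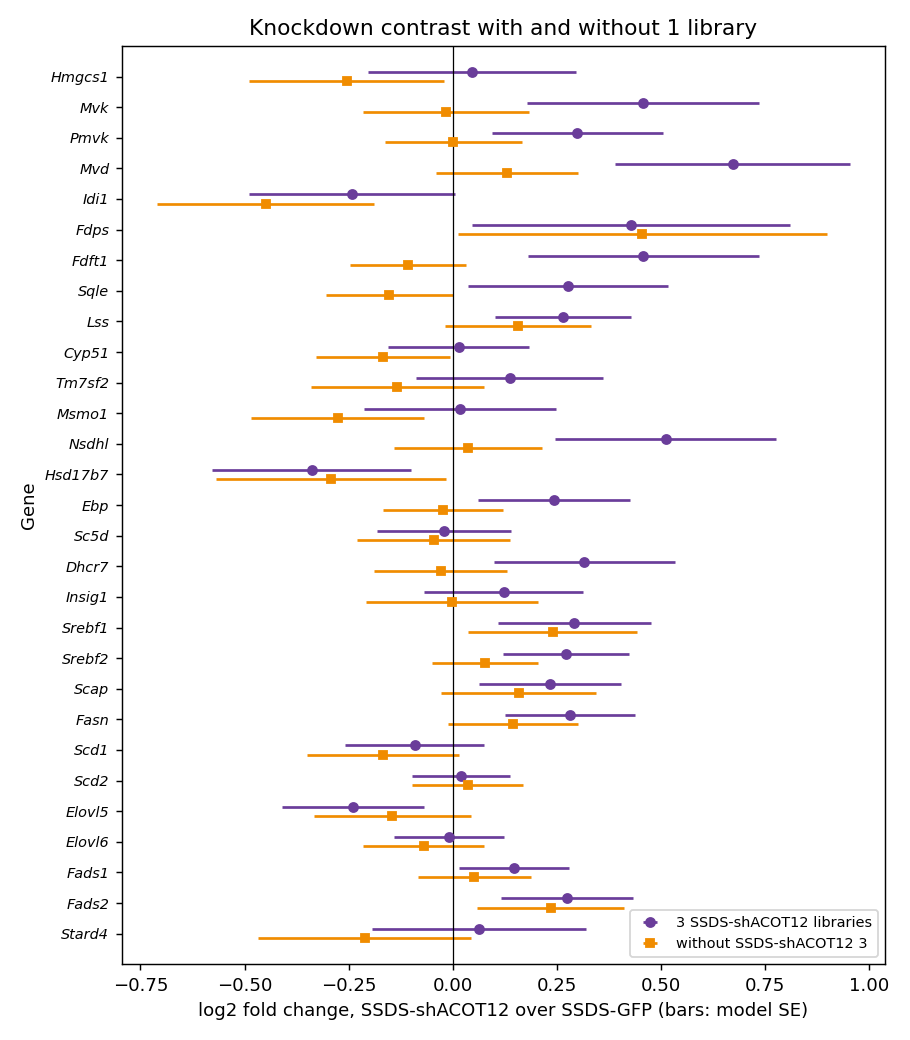
Log2 fold change of SSDS-shACOT12 over SSDS-GFP for each gene, with model SE as bars, fitted with all 3 SSDS-shACOT12 libraries (circles) and without SSDS-shACOT12 3 (squares). Leaving that library out moves most sterol enzymes to near or below 0, with a median of -0.05 for the 17, and moves the fatty acid enzymes little.

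The comparison of SSDS-GFP with Control holds stress and virus together. The set was split, with 16 positive and 13 negative log2 fold changes and a median of 0.00 beside 0.01 over all tested genes. The sterol enzymes had a median log2 fold change of 0.26, with 11 of 17 positive, while SREBP regulation had -0.12, with 1 of 4 positive. Ebp averaged 20.4 ± 0.924 CPM in SSDS-GFP and 14.3 ± 1.85 CPM in Control libraries (SD, n = 3 each). Its log2 fold change of 0.51 ± 0.18 was the only one of the set with an unadjusted p under 0.05 in the fit of all 12 libraries (edgeR adjusted p = 0.218). A limma-voom fit with library quality weights called it at a log2 fold change of 0.59 (limma adjusted p = 0.0233), in a fit that called 2239 of all genes. Cyp51 averaged 75.1 ± 3.92 CPM in SSDS-GFP and 59.0 ± 5.54 CPM in Control libraries (SD, n = 3 each), a log2 fold change of 0.35 ± 0.17 (edgeR adjusted p = 0.353). Pmvk had 0.38 ± 0.21, Lss -0.27 ± 0.16 and Fdft1 0.44 ± 0.28. SSDS-GFP values lay above Control values without overlap for 6 genes, Mvd, Fdft1, Sqle, Cyp51, Ebp and Elovl5, beside 12.5% of all genes, and below them for 0 genes, beside 11.4% of all genes. This comparison and that of CSDS share the 3 Control libraries. The values of CSDS and SSDS-GFP over Control stand side by side at 0.27 and 0.44 for Fdft1, 0.21 and 0.36 for Sqle, 0.18 and 0.35 for Cyp51 and 0.12 and 0.51 for Ebp on the log2 scale, and with opposite signs at 0.22 and -0.08 for Fdps and 0.08 and -0.18 for Insig1. Of the 5 choroid plexus markers 3 were high enough to be tested, and 1 was at 0 in at least 1 SSDS-GFP library. Choroid plexus markers summed to 16.2 to 39.7 CPM in SSDS-GFP and 37.0 to 549 CPM in Control libraries, and endothelial markers (5 of 5) to 183 to 206 CPM in SSDS-GFP and 212 to 259 CPM in Control libraries. Their part in these values was not tested.

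The difference between the CSDS effect and the knockdown effect was tested directly. It was positive for 8 and negative for 21 of 29 genes, with a median of -0.11 beside 0.01 over all tested genes. No gene of the set was called, beside 0% of all genes, and none had an unadjusted p under 0.05, beside 4.52% of all genes. The smallest p belonged to Fads2, with a difference of -0.38 ± 0.22 on the log2 scale (edgeR adjusted p = 0.920). Without SSDS-shACOT12 3 the median difference was 0.12, of the opposite sign.

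In SSDS-shACOT12 3 the genes of sterol synthesis were high together. The median log2 deviation from the 12-library mean was 0.47 over the set, 0.70 for the mevalonate enzymes, 0.97 for the squalene and lanosterol enzymes and 0.62 for the enzymes after lanosterol, against 0.28 for SREBP regulation and 0.13 for the fatty acid enzymes. This library had the highest value of all 12 for 17 of the 29 genes, beside 20.1% of all genes. The other SSDS-shACOT12 libraries did not share this. SSDS-shACOT12 1 lay above the mean for 14 of 29 genes, beside 52.3% of all genes. It was the lowest library for 8, beside 11.0% of all genes. SSDS-shACOT12 2 lay above the mean for 16, beside 49.6% of all genes. The SD of log2 CPM between the 3 SSDS-shACOT12 libraries had a median of 0.41 over the set and 0.31 over all genes. It was 0.09 over the set and 0.16 over all genes in CSDS libraries, 0.19 and 0.25 in SSDS-GFP libraries, and 0.16 for both in Control libraries. At the other end, Control 3 lay above the mean for 6 of 29 genes, beside 49.9% of all genes. Its medians were -0.39 for the mevalonate enzymes and -0.44 for the squalene and lanosterol enzymes.

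**Figure D4:**
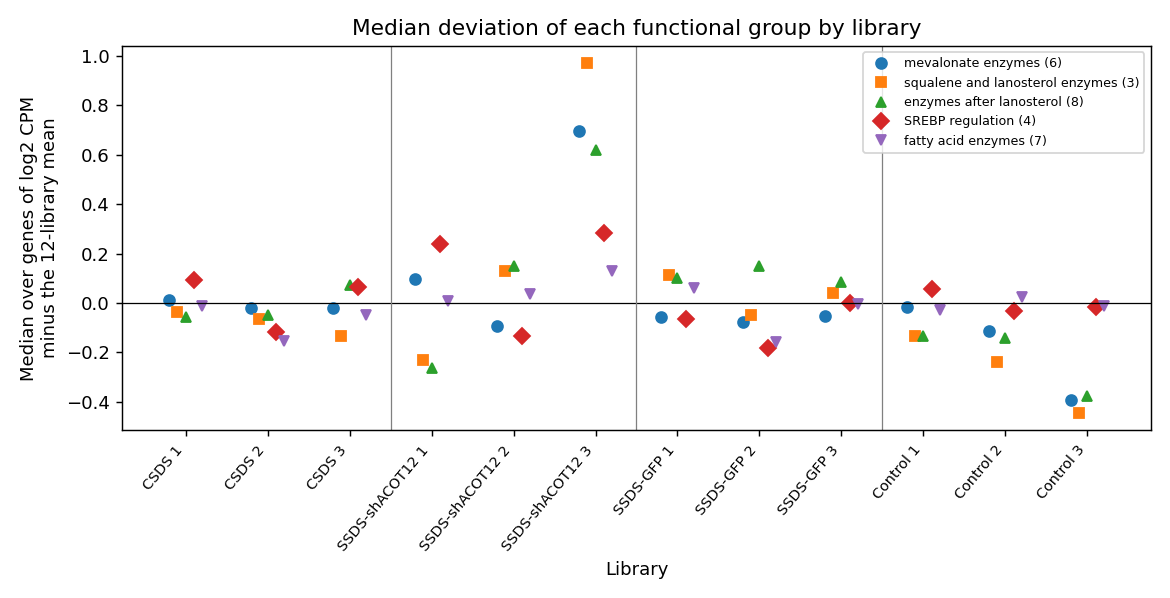
Median over the genes of each role of log2 CPM minus the 12-library mean, by library. In SSDS-shACOT12 3 the 3 groups of sterol enzymes stand between 0.62 and 0.97, above the regulators at 0.28 and the fatty acid enzymes at 0.13, and in Control 3 the same 3 groups are the lowest of their group.

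GC content moved with these values. The set's transcripts had a median GC content of 49.5%, the same as that of all tested genes, and ran from 41.9% in Idi1 to 59.1% in Scap. In SSDS-shACOT12 1 all genes had a median of -0.51 in the lowest and 0.29 in the highest eighth of GC content. The lowest eighth ended at 41.85%, just below Idi1, and so held no gene of the set. Of the set, 1 of the 14 genes of lower GC content was above the mean (median log2 deviation -0.45) and 13 of the 14 of higher GC content (0.17). The eighths of all genes centred at 43.5%, 46.0% and 48.4% had medians of -0.27, -0.10 and -0.01, nearer the mean than the 14 genes of lower GC content. In SSDS-shACOT12 3, where all genes had a median of -0.58 in the lowest and 0.32 in the highest eighth of GC content, the low-GC genes were above the mean in 12 of 14 (0.26) and the high-GC genes in 14 of 14 (0.61). With each library's GC trend removed, SSDS-shACOT12 3 was above the mean for 24 of 29 genes and highest for 21, beside 17.2% of all genes, and the median deviation was 0.35. After that removal SSDS-shACOT12 1 had a median of -0.12. The removal left the knockdown comparison at a median of 0.17 with 26 of 29 positive and 0 called. The sterol enzymes then had a median of 0.21 with 16 of 17 positive, against 0.27 before. SREBP regulation had 0.12 with 4 of 4 positive, against 0.25 before. Of the genes of high GC content, Srebf2 (57.9% GC) stood at 0.10, Srebf1 (58.4%) at 0.14, Scap (59.1%) at 0.06 and Fasn (57.9%) at 0.11. The mitochondrial genome's share of counts was 4.31% in SSDS-shACOT12 3 and 3.23% in SSDS-shACOT12 1, where the remaining 10 libraries had 6.31% to 9.24%. Astrocyte markers (7 of 7 measured) summed to 5118 CPM in SSDS-shACOT12 3, the highest of all libraries, with a range of 3657 to 5118 CPM in SSDS-shACOT12, 3818 to 4219 CPM in SSDS-GFP, 3871 to 4240.3 CPM in CSDS and 4031 to 4654 CPM in Control libraries. No astrocyte marker was at 0 in any library. Oligodendrocyte markers (9 of 9) summed to 6627 CPM in SSDS-shACOT12 3, with a mean log2 deviation of -0.21. Their range was 6627 to 6884 CPM in SSDS-shACOT12, 5754 to 9458 CPM in SSDS-GFP, 5819 to 6618 CPM in CSDS and 5481 to 7410 CPM in Control libraries. Hippocampus markers (6 of 6) summed to 618 CPM in SSDS-shACOT12 3, with a range of 618 to 1065 CPM in SSDS-shACOT12, 578 to 1062 CPM in SSDS-GFP, 766 to 1055 CPM in CSDS and 916 to 1278 CPM in Control libraries, and the lowest of all, 578 CPM, was in SSDS-GFP 3. Red blood cell markers (5 of 5) summed to 205 CPM in SSDS-shACOT12 3, against 103 and 92.8 CPM in the other SSDS-shACOT12 libraries and 67.1 to 119 CPM in SSDS-GFP libraries. No marker of these lists was at 0 in any library. The part of astrocytes, of oligodendrocytes, of hippocampal tissue, of red blood cells and of the mitochondrial share in the sterol values was not tested.

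**Figure D5:**
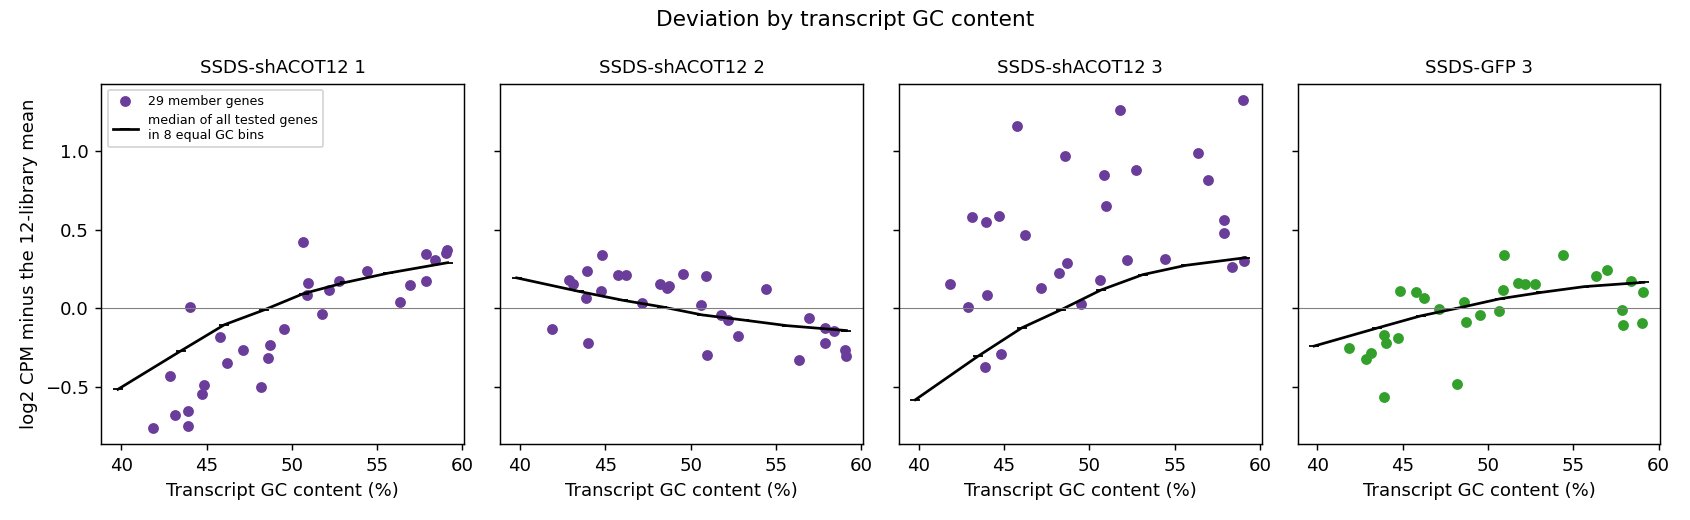
Log2 CPM minus the 12-library mean of the 29 genes (points) against transcript GC content in percent, in the 3 SSDS-shACOT12 libraries and SSDS-GFP 3, with the median of all tested genes in 8 equal GC bins as a line. In SSDS-shACOT12 1 the 14 points of lower GC content have a median of -0.45, where the line runs from -0.27 (43.5% GC) to -0.01 (48.4% GC). The 14 points of higher GC content have a median of 0.17, where the line runs from 0.09 (50.7% GC) to 0.29 (59.1% GC). In SSDS-shACOT12 3 most points lie above the line.

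The promoters of the set, over genes of all roles, were read for the letters of known elements. Whether these elements have a part in the values of any library was not tested. RefSeq windows (GRCm38.p6, 250 bases before to 50 after the start, 300 in length) were matched by symbol for 22 of the 29 genes, and Scd1, Scd2, Sqle, Fads1, Fdps, Fdft1 and Stard4 had none. A sterol response element spelled TCACNCCAC, the kind of site SREBP binds, was found on either strand in 1 of 22, Hmgcs1, beside 1.44% of 27025 genes. A CCAAT box is the site of NF-Y, which acts with SREBP. It was found in 19 of 22 (86.4%), all but Elovl6, Fads2 and Scap, beside 41.1% of the 27025 genes. A GC box spelled GGGCGG was found in 18 of 22 (81.8%), all but Elovl5, Elovl6, Fasn and Pmvk, beside 38.2% of the 27025 genes. These 27025 are all genes with a window, and they include genes too low to be tested here, while all 22 were tested. Shares among tested genes alone were not set beside these, so whether the elements are particular to the set was not tested. A match describes letters in a window, and no match says only that these letters are not in it. The 250 bases before the start are shown for Hmgcs1, which holds the sterol element, for Mvd and Nsdhl, which were 2 of the genes furthest above the mean in SSDS-shACOT12 3, and for Insig1, the target that feeds back on the pathway. They run 5′ to 3′ on the gene's strand, with TCACNCCAC and CCAAT, or its reverse complement ATTGG, in capitals.
Hmgcs1 (chr13:119690101-119690350, plus strand): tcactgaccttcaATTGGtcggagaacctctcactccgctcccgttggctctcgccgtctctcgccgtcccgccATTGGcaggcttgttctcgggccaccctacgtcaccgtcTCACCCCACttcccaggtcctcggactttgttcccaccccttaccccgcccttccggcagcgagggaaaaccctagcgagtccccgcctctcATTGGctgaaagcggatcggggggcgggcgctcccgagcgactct
Mvd (chr8:122443423-122443672, minus strand): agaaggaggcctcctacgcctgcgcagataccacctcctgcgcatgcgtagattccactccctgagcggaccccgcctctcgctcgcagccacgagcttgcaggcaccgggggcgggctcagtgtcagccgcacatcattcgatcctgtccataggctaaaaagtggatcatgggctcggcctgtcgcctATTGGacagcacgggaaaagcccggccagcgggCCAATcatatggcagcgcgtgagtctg
Nsdhl (chrX:72918271-72918520, plus strand): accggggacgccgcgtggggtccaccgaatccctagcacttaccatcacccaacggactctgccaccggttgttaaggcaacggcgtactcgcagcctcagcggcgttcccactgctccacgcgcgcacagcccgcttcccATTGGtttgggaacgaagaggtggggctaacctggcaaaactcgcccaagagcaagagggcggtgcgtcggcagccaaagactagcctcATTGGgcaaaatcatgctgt
Insig1 (chr5:28071162-28071411, plus strand): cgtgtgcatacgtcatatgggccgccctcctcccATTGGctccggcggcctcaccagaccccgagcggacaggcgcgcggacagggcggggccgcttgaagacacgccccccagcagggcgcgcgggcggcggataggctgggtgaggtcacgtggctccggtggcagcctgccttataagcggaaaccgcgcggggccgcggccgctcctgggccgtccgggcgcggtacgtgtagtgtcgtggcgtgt
In Hmgcs1 the sterol element covers bases 137 to 129 before the start, and 3 CCAAT boxes on the other strand begin at 237, 176 and 45 bases before it. Mvd carries 2 CCAAT boxes, the one on the gene's own strand at 27 to 23 bases before the start. Nsdhl carries 2 and Insig1 carries 1. The capitals of different elements do not overlap. The starts here are those of RefSeq and can differ from the gene starts given above. The Insig1 stretch ends at 28071411, past the gene start of 28071363 given above.

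Other genes of the pathways gave 0 calls with edgeR in every comparison. Of 25 further synthesis enzymes, 23 could be tested, and their median log2 fold change was 0.06 for CSDS over Control (15 positive), 0.00 for SSDS-shACOT12 over SSDS-GFP (11 positive) and 0.04 for SSDS-GFP over Control (12 positive). Acacb, an acetyl-CoA carboxylase, had the smallest p of them in both comparisons with Control, with -0.70 ± 0.34 (edgeR adjusted p = 0.863) for CSDS over Control and -1.24 ± 0.35 (edgeR adjusted p = 0.142) for SSDS-GFP over Control. At an unadjusted p under 0.05 there were 0 of these 23 enzymes for CSDS, 1 for the knockdown and 2 for SSDS-GFP over Control. Of the 19 uptake and transport genes there were 0, 2 and 1. Beside them stood 5.87%, 4.53% and 15.2% of all genes in these comparisons. Among 15 regulators of SREBP and of the sterol receptor LXR, the medians were -0.06, 0.02 and -0.06 in the same order of comparisons, with 6, 8 and 7 positive. Pgrmc1, an INSIG partner, was the only regulator with an unadjusted p under 0.05, at 0.50 ± 0.20 for SSDS-GFP over Control (edgeR adjusted p = 0.26). In that comparison 15.2% of all genes had such a p. Among 19 genes of sterol uptake, transport and turnover the medians were -0.08, 0.10 and 0.00, with 7, 12 and 10 positive. Abca1, which exports cholesterol, had -0.44 ± 0.21 for CSDS over Control (edgeR adjusted p = 0.857). SSDS-shACOT12 3 was the highest library for 10 of the 23 further enzymes, for 1 of the 15 regulators and for 6 of the 19 uptake and transport genes, beside 20.1% of all genes. It lay above the 12-library mean for 11 of the 23 further enzymes (median log2 deviation -0.02), for 7 of the 15 regulators (-0.01) and for 12 of the 19 uptake and transport genes (0.05).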

How the data were processed

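Ventral hippocampus RNA was sequenced from 1 sample per library, 12 in all. The deposited counts are raw whole reads per gene. The deposited FPKM values, per the file headers, were made by the authors; how they scaled the library size is not stated. Gene length, in bases, is also deposited. Per the submitters' processing notes, HISAT2 2.0.5, featureCounts 1.5.0-p3, DESeq2 (no version) and mm10 were used. The annotation release and strand setting are not given in the sources used here, and per the labels the kit was NEBNext Ultra RNA.

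Low genes were removed with edgeR's filterByExpr at its minimum count of 10 and minimum total of 15 (edgeR 4.0.16 under R 4.3.3), libraries were scaled by TMM, and a quasi-likelihood model with group alone was fitted to all 12 libraries. Tests were 2-sided, with Benjamini-Hochberg adjustment over 16915 genes and a threshold of 0.05. CPM used the TMM-scaled library, and deviations are log2 CPM with a prior count of 2. Errors of fold changes are model SE. The tests were tried on simulated data. The 29 genes, the pathway and marker lists and the naming rule were chosen with earlier results of these data known. The rule gave every library's value for the 4 genes of smallest p in each of 3 comparisons and for genes picked by role. Near copies were found with blastn at 95% identity over 300 bases or more in GENCODE M21 transcripts, which also gave GC content. No pair of libraries within a group was alike enough to be 1 library, and pairs across groups were not checked.

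Same-numbered SSDS-shACOT12 and SSDS-GFP libraries deviated together (correlations of 0.196, 0.419 and 0.353, all over the bound of 0.1), so their pairing comes from the data and not from a label. Correlations of differently numbered libraries were not set beside these. The alternatives were RLE scaling, the DESeq2 1.42.0 Wald test, no filter, 50 counts in 3 libraries, no mitochondrial genes, only the 6 libraries compared, the replicate block, each library left out, and limma 3.58.1 on log2 FPKM (0.1 or 1 added) and on voom values with quality weights. Removing each library's GC or length trend (lowess, span 0.3) and leaving out the 3 libraries that stand apart were chosen after seeing the data.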

Additional observations from a re-analysis of the deposited data

How the results depend on the processing

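The count of called genes of the set was 0 in the 4 contrasts and stayed 0 under all alternatives but 2. Without SSDS-shACOT12 2 it was 3 for SSDS-shACOT12 over SSDS-GFP (Mvd, Fasn and Elovl5), so leaving out each library gave 0 to 3. For SSDS-GFP over Control it was 1 (Ebp) with limma-voom quality weights. The causes were not tested. The median log2 fold change for SSDS-shACOT12 over SSDS-GFP, 0.23, ran from -0.023 (without SSDS-shACOT12 3) to 0.31 (without SSDS-shACOT12 2) with each library left out, and was -0.0014 without SSDS-GFP 3, SSDS-shACOT12 1 and SSDS-shACOT12 3. For the difference of the CSDS and knockdown effects, the median of -0.11 ran from -0.21 to 0.12 with each library left out and was 0.12 without those 3. With the replicate block the median for SSDS-shACOT12 over SSDS-GFP was 0.18 among the 6 libraries, and 0.14 with the GC trend removed as well; the block changed no other call in the set, and the numbers did not pair CSDS or SSDS-GFP with Control (correlations of -0.013 to 0.047 and of -0.259 to -0.063). Over all genes the calls moved far more: 0 for CSDS over Control became 6 with DESeq2, 84 with only the 6 libraries compared and 132 with no filter, and 16 for SSDS-GFP over Control became 527 with DESeq2, 608 with no filter, 9 with the replicate block, 0 with the block among 6 libraries and 4 to 111 with each library left out. The main fit had 3 libraries a group and pooled the spread over all groups. Its SEs were 0.12 to 0.39 on the log2 scale in the group comparisons, and up to 0.54 for the difference of effects. These SEs limit what could be called.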
